A study of Mus musculus with 282 samples.

Results

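The comparison covers the whole hypothalamus of the inbred mouse strain 129X1/SvJ and of the inbred strain C57BL/6J, chosen by the strain label of each mouse. The 2 strains had 3 mice each, that is 6 of the 282 mice in the series, and all 14079 gene rows of the deposited table were tested between them. Both strains were represented by males on the same high fat diet, with 1 unstranded, paired-end mRNA library per mouse and no other treatment. Their age, the day of dissection and the batch of extraction were not given in the sources used here. The mice of each strain carry consecutive mouse numbers, so that any difference in date or handling between the strains and the strain itself cannot be told apart. Nothing in the labels says whether the mice of a strain came from 1 litter or cage, so the p-values measure only the spread between mice of 1 strain, pooled over all 99 strains in the fit.

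C57BL/6J is the strain of the mouse reference genome, and 129X1/SvJ is a substrain of the 129 family, from which the first mouse embryonic stem cell lines were made. Gene-targeted mice were therefore often built in 129 cells and bred to C57BL/6J, and flanking 129 segments are a known source of expression differences in such mice. The hypothalamus joins feeding, stress, temperature and reproductive control, and its neurons are known by their peptides. The reads of all strains were aligned to the C57BL/6J sequence, so the effect of 129X1/SvJ bases on alignment and a difference in transcript abundance cannot be told apart.

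The libraries had 8406582 to 14201265 read pairs. The share that mapped was 93.83% to 94.94% in the C57BL/6J mice, and 94.03%, 87.49% and 75.01% in 129X1/SvJ mice 1, 2 and 3, so 129X1/SvJ mouse 3 stood apart and is left out beside the counts below. Markers of choroid plexus, the tissue that makes cerebrospinal fluid, were high in 1 mouse of each strain, with Ttr at 813, 4.53 and 7.27 FPKM in 129X1/SvJ and 29.6, 14.7 and 1376 FPKM in C57BL/6J. Of the 6 anterior pituitary genes listed, 5 averaged under 1 FPKM. The summed FPKM of 25 loci of hypothalamic transcription factors was 299.4 to 312.8 in 129X1/SvJ and 297.6 to 338.6 in C57BL/6J, and none of the 25 was called. No other tissue was compared, so these sums cannot show how alike the dissections were.

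FPKM are fragments scaled to transcript length and to the mapped fragments of the library, and differences are means of log2(FPKM + 1) in 129X1/SvJ minus those in C57BL/6J. A gene was called when limma's moderated test, fitted over the mice of all 99 strains, gave an adjusted p below 0.05. Of the 14079 genes, 1082 were called (7.69%), 418 of them higher (2.97%) and 664 lower (4.72%) in 129X1/SvJ. The median absolute difference of called genes was 0.56, and the median difference over all genes was -0.02. Without 129X1/SvJ mouse 3, 772 genes were called. The values of the 2 strains did not overlap in 1056 of the called genes, and in 25.1% of all genes. A difference of at least 1 log2 unit with no overlap was found in 220 genes (1.56%), 127 higher and 93 lower, and in 212 without 129X1/SvJ mouse 3. Correlations of log2(FPKM + 1) over genes were 0.980 to 0.985 between mice of 1 strain and 0.961 to 0.970 between mice of different strains.

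**Figure D1:**
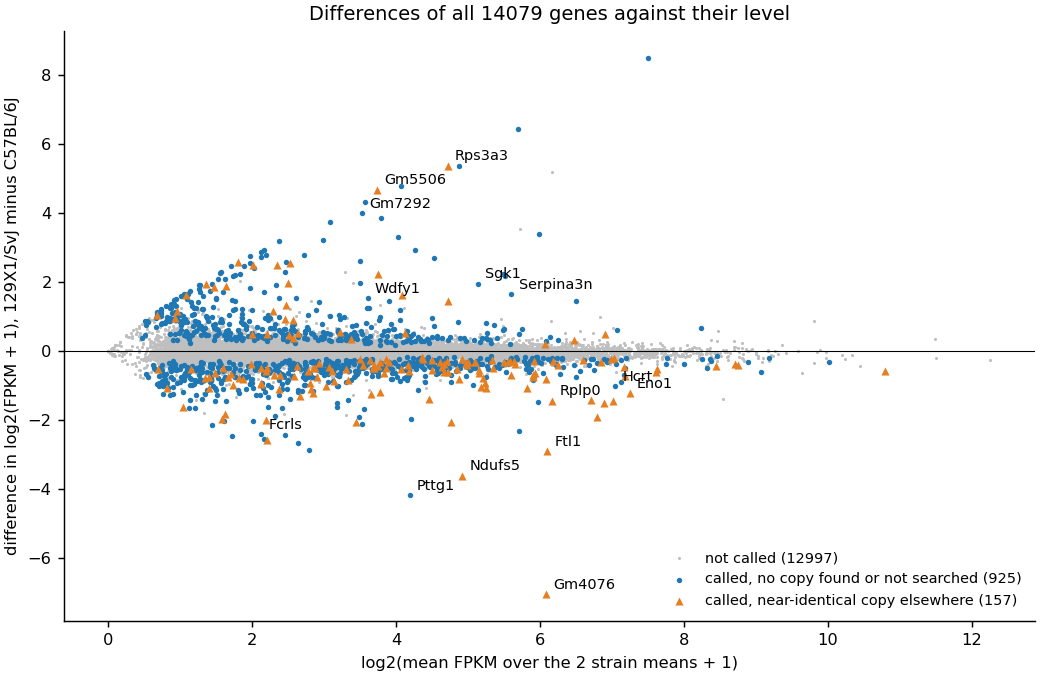
Each point is 1 of the 14079 genes, with its level on the x axis as log2 of the mean FPKM plus 1 and its difference in log2(FPKM + 1) on the y axis, 129X1/SvJ minus C57BL/6J. Grey points were not called, blue points were called, and orange triangles are the 157 called genes with a near-identical copy elsewhere in the genome, among them Rps3a3, Gm5506, Ftl1 and Ndufs5.

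Among genes with 1 name and no near-identical copy, Pttg1 was the most reduced in 129X1/SvJ. Pttg1 encodes securin, a regulator of the separation of sister chromatids at anaphase. It lies at chr11:43420250-43426251 (mm10, minus strand) and had 0.849, 1.25 and 0.668 FPKM in 129X1/SvJ and 35.3, 30.1 and 35.1 FPKM in C57BL/6J, a difference of -4.17 ± 0.31 (adjusted p = 8.6e-27). The lowest C57BL/6J mouse was far above the highest 129X1/SvJ mouse. Of 23 other classical inbred strains, 21 had a mean nearer to 129X1/SvJ than to C57BL/6J for this gene.

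Cthrc1, a secreted protein with a collagen repeat, fell by 2.65 on the log2 scale at chr15:39076932-39087119, with 0.683, 0.955 and 0.486 FPKM in 129X1/SvJ and 9.68, 9.95 and 9.39 FPKM in C57BL/6J. Its place among the strains was the other way round, since only 4 of 23 classical strains were nearer to 129X1/SvJ. Tnni1, the troponin I of slow muscle, had 0.157, 0.63 and 0.148 FPKM in 129X1/SvJ and 6.42, 5.41 and 8.19 FPKM in C57BL/6J (difference -2.55 ± 0.27). Myoc, the secreted protein myocilin, had 0.656, 0.331 and 0.809 FPKM in 129X1/SvJ and 5.72, 5.06 and 5.55 FPKM in C57BL/6J (difference -2.02 ± 0.28). In each of these genes the 129X1/SvJ mice were below 1 FPKM and every C57BL/6J mouse was above 5.

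Slc5a5, the sodium iodide symporter known from the thyroid, had 3.05, 3.62 and 4.53 FPKM in 129X1/SvJ and 17.7, 16.04 and 16.4 FPKM in C57BL/6J, a difference of -1.92 ± 0.16. Efcab2, an EF-hand protein, had 1.37, 1.01 and 0.972 FPKM in 129X1/SvJ and 7.23, 6.89 and 6.46 FPKM in C57BL/6J (difference -1.90 ± 0.13). None of the 23 other classical strains was nearer to 129X1/SvJ than to C57BL/6J in Efcab2. Zbed3, a protein that binds the Wnt pathway scaffold Axin, had 4.62, 4.40 and 4.59 FPKM in 129X1/SvJ and 15.01, 19.9 and 15.8 FPKM in C57BL/6J (difference -1.68 ± 0.42). Here all 23 other strains were nearer to 129X1/SvJ. Apoa2, an apolipoprotein of high-density lipoprotein, was low in both strains and had 0.323, 0 and 0 FPKM in 129X1/SvJ and 3.15, 1.68 and 2.67 FPKM in C57BL/6J (difference -1.65 ± 0.28). Fcrls, a scavenger receptor-like gene of microglia, is described with the microglia below.

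On the side that was higher in 129X1/SvJ, Sgk1, a kinase that is induced by glucocorticoids and raises sodium transport, stood out among the well expressed genes. It lies at chr10:21882079-22000249 and had 61.9, 65.8 and 37.7 FPKM in 129X1/SvJ and 9.40, 15.5 and 15.3 FPKM in C57BL/6J, a difference of 1.95 ± 0.34 and an adjusted p of 2.5e-06. The lowest 129X1/SvJ mouse, mouse 3, was still above the highest C57BL/6J mouse, and the difference was 1.73 to 2.202 when any 1 mouse was left out. Only 1 of 23 other classical strains was nearer to 129X1/SvJ.

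Serpina3n, a serine protease inhibitor of reactive astrocytes, had 69.2, 74.1 and 74.8 FPKM in 129X1/SvJ and 24.3, 20.02 and 23.3 FPKM in C57BL/6J at chr12:104406645-104414502 (difference 1.65 ± 0.15, adjusted p = 6.1e-20). Wdfy1, an endosomal protein of Toll-like receptor signalling, had 17.6, 16.1 and 17.5 FPKM in 129X1/SvJ and 4.77, 5.43 and 5.53 FPKM in C57BL/6J (difference 1.53 ± 0.09, adjusted p = 2e-37), and all 23 other strains were on the side of 129X1/SvJ. Pla2g4e, a cytosolic phospholipase A2, had 15.5, 17.4 and 18.3 FPKM in 129X1/SvJ and 3.0002, 3.75 and 4.10 FPKM in C57BL/6J (difference 1.97 ± 0.14). In these 3 genes the strains were separated by gaps wider than the whole range within either strain.

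Prss41, a serine protease of the testis, had 4.46, 5.73 and 4.43 FPKM in 129X1/SvJ and 0.176, 0.298 and 0.287 FPKM in C57BL/6J (difference 2.22 ± 0.23). Fxyd2, the gamma subunit of the sodium pump, had 6.73, 6.06 and 6.69 FPKM in 129X1/SvJ and 3.75, 0.589 and 1.25 FPKM in C57BL/6J, so that its C57BL/6J mice spread more widely than the others (difference 1.54 ± 0.30). It was not called in the fit of the 6 mice alone (adjusted p = 0.083). Abhd1, which was not searched for copies, had 6.39, 7.09 and 10.7 FPKM in 129X1/SvJ and 2.12, 1.31 and 3.02 FPKM in C57BL/6J (difference 1.53 ± 0.21). Sycp1, a protein of the meiotic synaptonemal complex, was listed at 0 in every C57BL/6J mouse and at 1.48 to 2.15 FPKM in 129X1/SvJ. Evf1_2, a conserved piece of the noncoding RNA Evf1 beside Dlx5 and Dlx6, had 2.14, 5.32 and 8.59 FPKM in 129X1/SvJ and 0, 0 and 0.17 FPKM in C57BL/6J, with a wide spread in 129X1/SvJ (difference 2.45 ± 0.61).

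**Figure D2:**
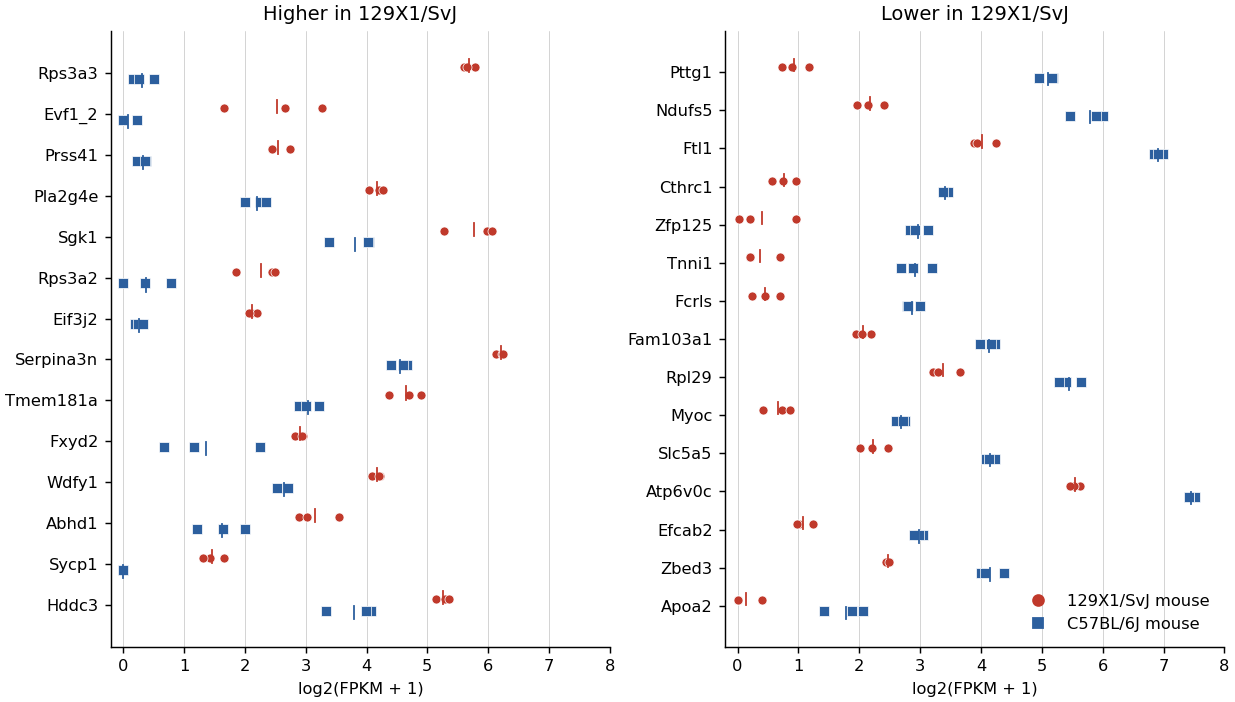
Log2(FPKM + 1) of every mouse, with 129X1/SvJ as red circles, C57BL/6J as blue squares and the mean of each strain as a short line, for 14 higher and 15 lower named genes among those with the largest differences. No pair of strains overlaps in any of the 29 genes, by the rule that chose them, and Evf1_2 and Fxyd2 show the widest spread within a strain.

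The predicted genes and clone names followed the same rule, with 5 in each direction. Gm7292, which was not searched for copies, had 21.3, 22.4 and 18.3 FPKM in 129X1/SvJ and 0.204, 0.831 and 0.118 FPKM in C57BL/6J (difference 3.998 ± 0.19). AA465934 had 37.5, 35.02 and 44.6 FPKM in 129X1/SvJ and 6.04, 4.69 and 5.003 FPKM in C57BL/6J (difference 2.68 ± 0.25). RP24-390G17.1 had 21.02, 16.7 and 17.7 FPKM in 129X1/SvJ and 2.22, 2.05 and 2.24 FPKM in C57BL/6J (difference 2.61 ± 0.21). Gm15564 was higher in every 129X1/SvJ mouse but uneven among them, with 13.02, 20.6 and 66.2 FPKM in 129X1/SvJ and 2.21, 1.21 and 5.70 FPKM in C57BL/6J, and was not called in the 6 mice alone (adjusted p = 0.065). On the lower side, 4833420G17Rik, next to Nnt on chromosome 13, had 3.68, 3.60 and 3.04 FPKM in 129X1/SvJ and 12.4, 12.8 and 13.03 FPKM in C57BL/6J (difference -1.63 ± 0.12). Gm4076 had the largest fall of any named gene, with 0.00398, 0.000846 and 0.0783 FPKM in 129X1/SvJ and 141, 131 and 129.6 FPKM in C57BL/6J (difference -7.04 ± 1.33), but it matches mt-Nd5, a complex I gene of the mitochondrial genome, at 95.2% identity over 954 bases, so its level is uncertain.

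Loci of the assembly without any gene name made up 48.6% of the 220 genes with at least 1 log2 unit and no overlap, with 83 higher and 24 lower in 129X1/SvJ, whereas 1943 of the 14079 genes have no name. The largest difference of all belonged to such a locus, XLOC_024435 on chromosome 4, singled out after its values were seen. It was listed at 306, 337 and 440 FPKM in the 129X1/SvJ mice and at 0 in every C57BL/6J mouse, so no fold can be given. In all, 27 called genes were listed at 0 in the 3 C57BL/6J mice and 4 in the 3 129X1/SvJ mice. Genes at 0 in all 3 mice of a strain were not counted over all genes. Per mouse, called or not, 87, 90 and 133 genes were at 0 in 129X1/SvJ, and 134, 197 and 131 in C57BL/6J. Names come from GENCODE models on the C57BL/6J reference genome, so naming does not treat the strains alike. Its part in the counts of unnamed loci was not tested.

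A read can be assigned to the wrong place when a gene has a near-identical copy, often a processed pseudogene, elsewhere in the genome. Among the genes with 1 name that could be searched, 1442 matched another gene of GENCODE M21 at 95% identity or more over at least 200 bases. Of these, 157 were called (10.9%), against 620 of the 10007 genes without such a copy (6.2%). A difference of at least 1 log2 unit with no overlap was found in 46 genes with a copy (3.19%) and in 57 without (0.57%). Levels of the genes with a copy are therefore given as uncertain, and how far the alignment shares their reads was not tested.

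Among called genes, 18 pairs of a gene and its copy were both called, 11 in opposite and 7 in the same direction. The 18 pairs hold 32 genes, as some genes stand in more than 1 pair. Pairs that were not called were not counted, so no share over all pairs is given. Of all called genes, 38.6% were higher in 129X1/SvJ. Those in the same direction include Zfp738 with Nudcd1 and Ccrn4l with Slc38a6, which were paired by the sequence match alone. Rps3a1, a protein of the small ribosomal subunit, had 72.4, 74.3 and 59.2 FPKM in 129X1/SvJ against 200.9, 186 and 177 in C57BL/6J. Its copy Rps3a3 had 47.7, 53.8 and 49.5 FPKM in 129X1/SvJ and 0.122, 0.198 and 0.421 FPKM in C57BL/6J, and its copy Rps3a2 had 2.61, 4.46 and 4.63 FPKM in 129X1/SvJ and 0.728, 0 and 0.28 FPKM in C57BL/6J. The gene was thus lower by 1.44 on the log2 scale where the copies were higher by 5.37 and 1.88. The summed FPKM of Rps3a1 and Rps3a3 differed by -0.66.

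Eno1, the glycolytic enzyme enolase 1, had 87.9, 94.0 and 89.1 FPKM in 129X1/SvJ and 208.7 to 216.5 in C57BL/6J, while its copy Gm5506, 99.5% identical over 1736 bases, had 26.3, 22.97 and 24.2 FPKM in 129X1/SvJ and 0, 0 and 0 FPKM in C57BL/6J. Rplp0, a protein of the ribosomal stalk, had 33.2 to 41.9 FPKM in 129X1/SvJ and 91.5 to 119 in C57BL/6J, against 5.22 to 6.56 and 0.160 to 0.264 for its copy Gm8730. Rnps1, an RNA-binding protein of the exon junction complex, had 10.3 to 11.5 and 29.3 to 31.6 FPKM, and its copy Gm9825 had 9.96, 10.02 and 6.58 FPKM in 129X1/SvJ and 0.755, 0.669 and 0.533 FPKM in C57BL/6J. In these 3 pairs the copy was below 1 FPKM in every C57BL/6J mouse, and the parent was lower in every 129X1/SvJ mouse.

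The summed FPKM of the 2 members differed by -0.88 on the log2 scale for Eno1 and Gm5506, -1.24 for Rplp0 and Gm8730, and -0.64 for Rnps1 and Gm9825. It was higher in 129X1/SvJ for Gm9493 and Gm6472, Eif3j2 and Eif3j1, and Gpr137b and Gpr137b-ps, by 1.38, 0.61 and 0.50. The sum was close to 0 for Ahcy and Gm4737, at 0.06. In Gpr137b and Gpr137b-ps the parent was the higher one in 129X1/SvJ, with 6.24 to 7.15 against 2.80 to 3.52 FPKM, and the copy was the lower one, with 0.118 to 0.163 against 1.17 to 1.501 FPKM. Eif3j2 and Eif3j1, 99.4% identical over 2379 bases, also moved apart, by 1.86 and -0.75.

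Several of the most reduced genes have copies that were not in the table or not called. Ftl1, the light chain of the iron store ferritin, had 17.9, 13.7 and 14.3 FPKM in 129X1/SvJ and 126, 114 and 119 FPKM in C57BL/6J (difference -2.89 ± 0.16) and has 6 copies, none of them in the table. Ndufs5, a subunit of respiratory complex I, had 2.89, 4.32 and 3.41 FPKM in 129X1/SvJ and 63.4, 58.1 and 43.1 FPKM in C57BL/6J (difference -3.61 ± 0.21) and has 1 copy, also not in the table. Fam103a1, an activator of the messenger RNA cap methyltransferase, had 3.57, 2.87 and 3.14 FPKM in 129X1/SvJ and 14.8, 17.7 and 17.0 FPKM in C57BL/6J (difference -2.06 ± 0.11), and 0 of 23 other strains were nearer to 129X1/SvJ. Rpl29, a ribosomal protein with 49 copies, had 11.5, 8.23 and 8.80 FPKM in 129X1/SvJ and 49.1, 41.0 and 38.1 FPKM in C57BL/6J, and its copy Gm10709 fell with it, by 1.98 on the log2 scale. Zfp125, Tmem181a, Hddc3, Gm5148 and Gm9493 also have copies, with differences of -2.57, 1.61, 1.46, -1.99 and -1.81.

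**Figure D3:**
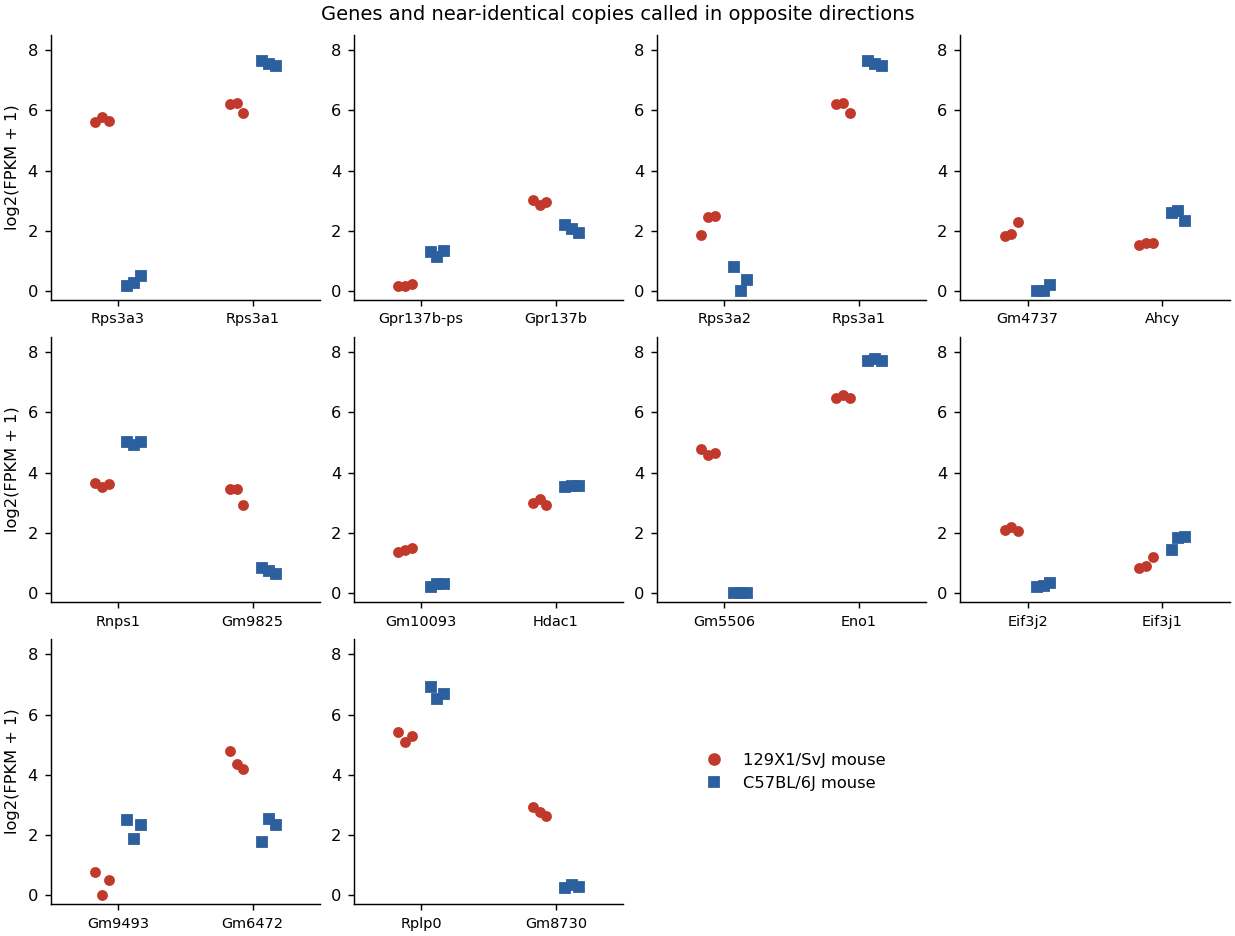
Log2(FPKM + 1) of each mouse, 129X1/SvJ as red circles and C57BL/6J as blue squares, for 10 of the 11 pairs of a gene and a near-identical copy that were called in opposite directions. In Rps3a1 and Rps3a3, Eno1 and Gm5506, Rplp0 and Gm8730 and 5 other pairs the gene is higher in C57BL/6J and its copy in 129X1/SvJ, and Gpr137b and its copy Gpr137b-ps go the other way.

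Genes with known differences between C57BL/6J and other strains served as a check of the C57BL/6J label, and are not results about these mice. C57BL/6J carries a deletion in Nnt, the mitochondrial transhydrogenase that makes NADPH, and an intron deletion that lowers Gabra2, a subunit of the GABA-A receptor. Nnt had 9.02, 8.46 and 9.09 FPKM in 129X1/SvJ and 5.997, 5.95 and 6.05 FPKM in C57BL/6J (difference 0.49 ± 0.08, adjusted p = 5.8e-07). The locus that joins Gabra2 and Gabrg1 had 55.5, 55.7 and 52.0 FPKM in 129X1/SvJ and 35.4, 35.04 and 32.5 FPKM in C57BL/6J (difference 0.65 ± 0.13, adjusted p = 7.5e-05), and the other 12 GABA-A receptor loci were not called. All 23 other classical strains were nearer to 129X1/SvJ in Nnt, in Gabra2/Gabrg1 and in Wdfy1. The label 129X1/SvJ therefore cannot be checked by these genes, because mice of any of those strains would pass. Of the 8 loci found from this list, these 3 were called, and the other 5, which include Disc1, Glo1, Hbb-bs and Hbb-bt, were not, with differences from -0.47 to 0.66. Hbb-bs, an adult beta globin, had 159, 182 and 133 FPKM in 129X1/SvJ and 99.4, 98.7 and 97.7 FPKM in C57BL/6J, without overlap but with an adjusted p of 0.31.

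The feeding peptides, the messengers by which arcuate and lateral hypothalamic neurons set appetite, included 1 called gene. Hcrt, the orexin precursor of the lateral hypothalamus that keeps animals awake and feeding, had 66.3, 92.2 and 99.6 FPKM in 129X1/SvJ and 217, 155 and 155 FPKM in C57BL/6J, a difference of -1.03 ± 0.28 (adjusted p = 0.0081). The highest 129X1/SvJ mouse was below the lowest C57BL/6J mouse. The call was lost without 129X1/SvJ mouse 1 or without C57BL/6J mouse 1, which had the lowest and the highest value. Pmch, the precursor of melanin-concentrating hormone of neighbouring neurons, had 429, 523 and 511 FPKM in 129X1/SvJ and 429.8, 404 and 397 FPKM in C57BL/6J (difference 0.24 ± 0.23, adjusted p = 0.68). Npy, which drives feeding, had 18.8, 20.5 and 22.8 FPKM in 129X1/SvJ and 22.6, 14.3 and 15.3 FPKM in C57BL/6J (difference 0.26 ± 0.26), and Pomc, the precursor of melanocortins, had 18.3 to 58.4 and 21.4 to 31.5 FPKM. Of 13 loci 1 was called, with a median difference of -0.02, the same as over all genes.

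No other neuropeptide or processing enzyme was called among 28 loci (median -0.04). Avp, vasopressin, had 138, 144 and 301 FPKM in 129X1/SvJ and 290.96, 195 and 224.4 FPKM in C57BL/6J, and its strains overlapped. Cpe, the carboxypeptidase that trims peptide hormones, had 1018, 956 and 822 FPKM in 129X1/SvJ and 1031, 1154 and 1056 FPKM in C57BL/6J (difference -0.22 ± 0.09, adjusted p = 0.12). By limma none of 25 hypothalamic transcription factor loci, 17 ionotropic glutamate receptor loci, 20 circadian clock loci or 16 immediate early loci was called, with medians of -0.11, 0.04, -0.03 and 0.32. For the immediate early genes, which report recent neuronal activity, single differences ran from -0.50 to 0.98.

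In the leptin, insulin and melanocortin pathway, which carries adiposity signals to the hypothalamus, 1 of 29 loci was called, against 7.69% of all genes. Insr, the insulin receptor, had 7.97, 8.02 and 7.92 FPKM in 129X1/SvJ and 9.18, 9.66 and 10.3 FPKM in C57BL/6J (difference -0.25 ± 0.08, adjusted p = 0.032), with no overlap but a small size. It was called without C57BL/6J mouse 1 and lost without any other 1 of the 6 mice. In transmitter synthesis and transport 2 of 19 loci were called, both lower, a share near that of all genes, and 0 in the 6 mice alone. Glul, the astrocyte enzyme that turns glutamate into glutamine, had 374, 373 and 342 FPKM in 129X1/SvJ and 494.2, 459 and 464 FPKM in C57BL/6J (difference -0.38 ± 0.09), a call lost with quantile normalization and in the 6 mice alone. Slc17a8, a vesicular glutamate transporter, was near 1 FPKM and had 0.473, 0.659 and 0.599 FPKM in 129X1/SvJ and 0.855, 1.23 and 1.29 FPKM in C57BL/6J (difference -0.43 ± 0.14). The call of Slc17a8 held only without C57BL/6J mouse 1, among the fits that left out 1 mouse.

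Genes that respond to glucocorticoids, the adrenal stress hormones, included 3 called genes of 15, all higher in 129X1/SvJ, against 2.97% of all genes, with a median of 0.22 over the list. The 3 were called again when any 1 of the 6 mice was left out. Besides Sgk1 they were Pdk4, a kinase that restrains glucose oxidation, with 3.78, 4.10 and 4.62 FPKM in 129X1/SvJ and 1.86, 2.13 and 2.62 FPKM in C57BL/6J (difference 0.69 ± 0.16, adjusted p = 0.0011), and Nfkbia, the inhibitor of NF-kappaB, with 12.5, 12.1 and 11.5 FPKM in 129X1/SvJ and 7.29, 6.56 and 6.99 FPKM in C57BL/6J (difference 0.71 ± 0.17, adjusted p = 0.0011). Other members of the list were not called. Fkbp5, a chaperone of the glucocorticoid receptor, had 11.96, 8.08 and 7.67 FPKM in 129X1/SvJ and 8.03, 8.07 and 8.80 FPKM in C57BL/6J (difference 0.11 ± 0.19, adjusted p = 0.85), and Tsc22d3 had 41.6, 51.8 and 38.7 FPKM in 129X1/SvJ and 34.6, 38.7 and 39.8 FPKM in C57BL/6J. The 2 metallothioneins Mt1 and Mt2 had differences of -0.03 and -0.11. Hormone levels were not analysed here.

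Among the start sites of Sgk1, 2 were called, and both were higher in 129X1/SvJ. Their RefSeq promoter windows are shown because the deposited start sites begin at the RefSeq starts, so that the bases next to the 2 raised starts can be read. The windows hold 250 bases before and 50 from the RefSeq start, on GRCm38.p6, and the 50 transcribed bases are in capitals. They were chosen after their values were seen. The site at 21994666 to 21994683 of chromosome 10 had 41.3, 45.8 and 21.96 FPKM in 129X1/SvJ and 4.12, 9.94 and 4.09 FPKM in C57BL/6J (difference 2.44 ± 0.45), and the site at 21992223 had 9.498, 8.64 and 3.93 FPKM in 129X1/SvJ and 0.472, 0.565 and 2.26 FPKM in C57BL/6J (difference 2.02 ± 0.52).

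Sgk1, chr10:21994416-21994715, plus strand: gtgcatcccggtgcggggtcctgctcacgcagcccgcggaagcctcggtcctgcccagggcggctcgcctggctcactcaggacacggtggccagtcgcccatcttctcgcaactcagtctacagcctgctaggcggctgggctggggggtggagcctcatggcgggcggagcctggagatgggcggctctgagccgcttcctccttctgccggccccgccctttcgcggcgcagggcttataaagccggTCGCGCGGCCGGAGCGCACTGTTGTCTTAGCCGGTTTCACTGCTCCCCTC

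Sgk1, chr10:21991973-21992272, plus strand: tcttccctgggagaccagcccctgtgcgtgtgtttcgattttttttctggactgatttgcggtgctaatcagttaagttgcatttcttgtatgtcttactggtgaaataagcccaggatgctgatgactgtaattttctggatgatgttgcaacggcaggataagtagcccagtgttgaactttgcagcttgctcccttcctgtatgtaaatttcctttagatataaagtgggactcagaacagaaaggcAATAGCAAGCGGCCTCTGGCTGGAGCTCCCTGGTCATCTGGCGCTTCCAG

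The first window holds 28 CG dinucleotides and the second 6, against a median of 7 over 32851 promoter windows. These are reference bases, which come from C57BL/6J, and the 129X1/SvJ sequence was not analysed here.

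Microglia, the resident macrophages of the brain, had 19 marker loci in the table. Of these, 6 were lower in 129X1/SvJ, against 4.72% of all genes, and none was higher, with a median of -0.33. In the 6 mice alone 4 microglia markers were called, the same number as for oligodendrocytes. Without 129X1/SvJ mouse 3 there were also 6, without C57BL/6J mouse 2 there were 5, and without 129X1/SvJ mouse 2 there were 4. In a bulk tissue, fewer cells of a type and less RNA per cell cannot be told apart. The summed FPKM of the list was 239.5 to 266.8 in 129X1/SvJ and 311.1 to 339.3 in C57BL/6J. That sum includes Aif1 as a locus joined with Lst1 and Prrc2a, so it is not the level of microglia markers alone. The joined locus had a mean log2(FPKM + 1) of 6.52 in 129X1/SvJ and 6.76 in C57BL/6J.

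Fcrls had the widest gap of the list, with 0.366, 0.617 and 0.174 FPKM in 129X1/SvJ and 5.92, 7.03 and 5.99 FPKM in C57BL/6J (difference -2.41 ± 0.19, adjusted p = 2.5e-24), and 21 of 23 other classical strains were nearer to 129X1/SvJ. Itgam, the integrin CD11b, had 1.84, 1.57 and 1.31 FPKM in 129X1/SvJ and 3.08, 5.64 and 4.69 FPKM in C57BL/6J (difference -1.06 ± 0.16). C1qa and C1qb, chains of the complement starter C1q, had 11.4, 9.82 and 16.1 FPKM in 129X1/SvJ and 22.6, 21.8 and 19.5 FPKM in C57BL/6J, and 10.3, 10.4 and 14.8 FPKM in 129X1/SvJ and 21.6, 19.8 and 23.4 FPKM in C57BL/6J, with differences of -0.76 ± 0.20 and -0.83 ± 0.22. Ctss, a lysosomal protease, had 25.7, 26.0 and 26.9 FPKM in 129X1/SvJ and 33.0, 38.9 and 38.3 FPKM in C57BL/6J (difference -0.47 ± 0.13), and Cx3cr1, the fractalkine receptor, had 8.05, 7.76 and 7.39 FPKM in 129X1/SvJ and 9.64, 10.8 and 9.61 FPKM in C57BL/6J (difference -0.33 ± 0.10). Cx3cr1 was lost without 129X1/SvJ mouse 2 or 3 or C57BL/6J mouse 2, Ctss without C57BL/6J mouse 2 and C1qa without 129X1/SvJ mouse 2. Other markers were not called. Csf1r, the growth factor receptor on which microglia depend, had 16.1, 14.2 and 13.6 FPKM in 129X1/SvJ and 12.01, 15.6 and 14.6 FPKM in C57BL/6J (difference 0.06 ± 0.11, adjusted p = 0.88).

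Oligodendrocyte markers lay below 0 in 18 of 18 loci, with a median of -0.33, and 16 of the 18 did not overlap between the strains, where 15% of all genes were lower without overlap. By the fit over all strains 2 were called, against 4 in the 6 mice alone and 6 in these mice with array weights. Olig1, a transcription factor of the lineage, had 47.6, 43.9 and 44.3 FPKM in 129X1/SvJ and 78.2, 64.5 and 61.5 FPKM in C57BL/6J (difference -0.57 ± 0.16), and Gpr37, a receptor of mature oligodendrocytes, had 19.1, 17.4 and 18.6 FPKM in 129X1/SvJ and 22.4, 27.6 and 24.6 FPKM in C57BL/6J (difference -0.41 ± 0.12). Mbp, the myelin basic protein, had 1100.0, 1128.3 and 1076 FPKM in 129X1/SvJ and 1247, 1324 and 1344 FPKM in C57BL/6J (difference -0.24 ± 0.16, adjusted p = 0.48). The summed FPKM of the list was 2287 to 2424 in 129X1/SvJ and 2768 to 2988 in C57BL/6J. Neither call held throughout, as Olig1 was lost without C57BL/6J mouse 1 and Gpr37 without 129X1/SvJ mouse 2 or C57BL/6J mouse 2.

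Among markers of blood vessel cells 3 of 14 loci were called (median -0.25), against 7.69% of all genes. Rgs5, a regulator of G protein signalling in pericytes, had 13.7, 12.3 and 12.3 FPKM in 129X1/SvJ and 20.8, 20.9 and 22.4 FPKM in C57BL/6J (difference -0.70 ± 0.11), Cdh5, the cadherin of endothelial junctions, had 2.95, 2.66 and 2.31 FPKM in 129X1/SvJ and 3.60, 3.77 and 3.62 FPKM in C57BL/6J (difference -0.36 ± 0.11), and Mfsd2a, the lipid transporter of the blood-brain barrier, was higher, with 15.8, 18.1 and 17.0 FPKM in 129X1/SvJ and 10.8, 10.002 and 11.3 FPKM in C57BL/6J (difference 0.62 ± 0.18). For astrocytes and for ependymal cells and tanycytes the shares were near that of all genes. For astrocytes 1 of 15 was called, Acsbg1, an acyl-CoA synthetase, with 55.3, 51.8 and 47.3 FPKM in 129X1/SvJ and 64.6, 62.1 and 61.5 FPKM in C57BL/6J (difference -0.28 ± 0.08), and for ependymal cells and tanycytes 1 of 11, Ccdc153, a gene of ciliated cells, with 4.24, 3.17 and 5.09 FPKM in 129X1/SvJ and 7.48, 6.87 and 8.28 FPKM in C57BL/6J (difference -0.74 ± 0.24). Of these, Rgs5 was called whichever mouse was left out. Cdh5 held only without 129X1/SvJ mouse 1 and Ccdc153 only without 129X1/SvJ mouse 3. Mfsd2a was lost without 129X1/SvJ mouse 2 or 3 or C57BL/6J mouse 2, and Acsbg1 without 129X1/SvJ mouse 3 or C57BL/6J mouse 1. By limma no marker of anterior pituitary, choroid plexus, thalamus, blood, striatum, or cortex and hippocampus was called among 6, 5, 5, 5, 7 and 3 loci. The 4 Y chromosome genes of the list were not called either. Single mice differed all the same. The summed FPKM of the cortex and hippocampus loci was 70.5, 30.5 and 34.2 in 129X1/SvJ and 30.9 to 37.1 in C57BL/6J. That of the thalamus loci was 132.9 to 202.0 in 129X1/SvJ and 140.6 to 219.2 in C57BL/6J, with all 5 differences below 0.

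Of the interferon-stimulated genes, the antiviral programme of every cell, 24 loci were in the table and 3 were called, all lower (median -0.31), against 4.72% of all genes. Ifitm3, a membrane protein that blocks virus entry, had 6.52, 5.61 and 5.53 FPKM in 129X1/SvJ and 13.3, 11.3 and 11.1 FPKM in C57BL/6J (difference -0.90 ± 0.30), its relative Ifitm1 had 0.947, 0 and 1.33 FPKM in 129X1/SvJ and 2.56, 1.74 and 3.21 FPKM in C57BL/6J (difference -1.06 ± 0.36), and the locus of the guanosine triphosphatases Igtp and Irgm2 had 1.56, 0.867 and 1.14 FPKM in 129X1/SvJ and 3.29, 4.003 and 3.9996 FPKM in C57BL/6J (difference -1.13 ± 0.31). Ifitm3 was not called when any 1 of the 6 mice was left out, Ifitm1 held only without 129X1/SvJ mouse 3, and Igtp/Irgm2 was lost without 129X1/SvJ mouse 2. Of 16 listed loci of the MHC region, H2-T22 alone was called, near the share of all genes. It had 3.53, 3.59 and 4.41 FPKM in 129X1/SvJ and 8.31, 8.38 and 7.77 FPKM in C57BL/6J (difference -0.92 ± 0.20), and it has 12 near-identical copies. Of 12 complement loci, C1qa, C1qb and Cd59a were lower and Cd46 was higher, a share of 33.3% against 7.69% of all genes, with 2 called in the 6 mice alone. C1qa and C1qb were already counted among the called microglia markers, so the share is not a separate result. Cd59a, which blocks the membrane attack complex, had 3.08, 2.80 and 3.25 FPKM in 129X1/SvJ and 5.77, 5.58 and 6.17 FPKM in C57BL/6J (difference -0.76 ± 0.15), and Cd46, a complement regulator, had 3.15, 4.14 and 4.03 FPKM in 129X1/SvJ and 2.26, 2.63 and 2.63 FPKM in C57BL/6J (difference 0.44 ± 0.14). Cd46 held only without 129X1/SvJ mouse 1.

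In cholesterol and fatty acid synthesis 2 of 30 loci were called, both lower, a share near the 7.69% of all genes, and in the 6 mice alone 0 of the 30 were called. Insig1, which holds the sterol sensor in the endoplasmic reticulum, had 20.8, 25.9 and 23.995 FPKM in 129X1/SvJ and 32.5, 30.0 and 30.4 FPKM in C57BL/6J (difference -0.38 ± 0.08), and Sc5d, an enzyme late in the cholesterol pathway, had 17.9, 18.7 and 18.2 FPKM in 129X1/SvJ and 22.8, 26.7 and 23.98 FPKM in C57BL/6J (difference -0.40 ± 0.11), a call that was lost without C57BL/6J mouse 2. In glutathione and NADPH metabolism 4 of 40 were called, 2 in each direction, which is also near that share. Gsr, glutathione reductase, was higher like Nnt, with 18.6, 17.3 and 26.2 FPKM in 129X1/SvJ and 12.4, 10.3 and 9.19 FPKM in C57BL/6J (difference 0.88 ± 0.16). The glutathione transferases Gstm1 and Gstm6 were lower, with 102, 102 and 101 FPKM in 129X1/SvJ and 141, 122 and 119 FPKM in C57BL/6J, and 8.998, 9.88 and 11.5 FPKM in 129X1/SvJ and 20.8, 15.8 and 19.5 FPKM in C57BL/6J, and differences of -0.32 ± 0.08 and -0.82 ± 0.16, and Gstm1 was lost without C57BL/6J mouse 1. Of 17 heat shock chaperones only Cryab, the small heat shock protein alpha B-crystallin, was called, again near the share of all genes. It had 41.7, 31.8 and 24.3 FPKM in 129X1/SvJ and 96.9, 83.3 and 91.5 FPKM in C57BL/6J, a difference of -1.48 ± 0.21 (adjusted p = 5.5e-09), and 1 of 23 other strains was nearer to 129X1/SvJ.

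**Figure D4:**
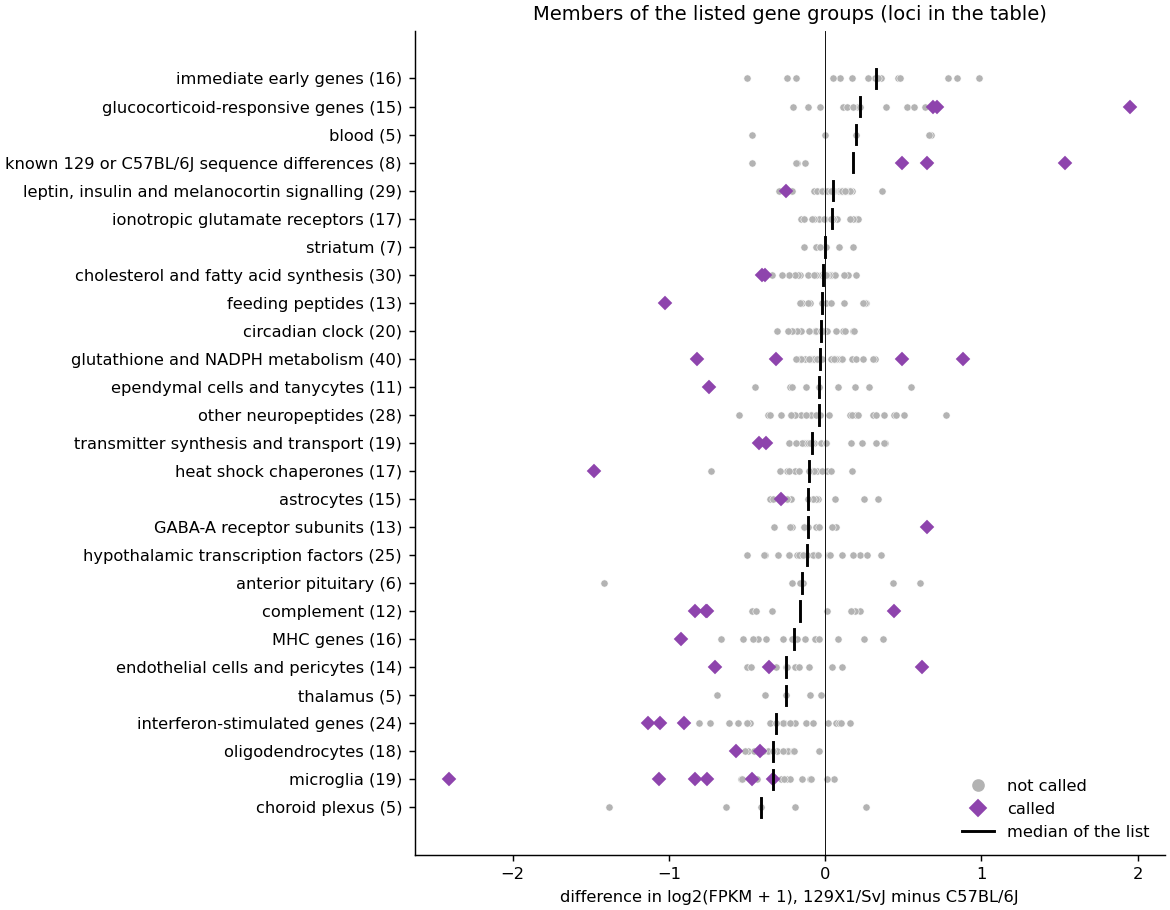
Differences in log2(FPKM + 1), 129X1/SvJ minus C57BL/6J, for the members of each listed group with at least 5 loci in the table, ordered by the median of the group (black line), with purple diamonds for called members and grey points for the rest. Microglia show 6 purple diamonds, all on the left, with Fcrls at -2.41, and the glucocorticoid-responsive genes show 3, all on the right, with Sgk1 at 1.95.

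To see which of the 2 strains was the unusual one, each gene was placed among the 25 classical inbred strains of the series. Over the 1082 called genes a median of 11 of the 23 other strains were nearer to 129X1/SvJ, the same as over all genes. Over the 220 genes with at least 1 log2 unit and no overlap the median was 13, and most strains were nearer to 129X1/SvJ in 132 of them (60%), against 47.4% of all genes. All but at most 2 of the other strains were nearer to 129X1/SvJ in 68 of the 1082 called genes and in 776 of all 14079 genes. At most 2 were nearer in 114 of the called genes and in 1115 of all genes. In 13 called genes all 23 strains were nearer to 129X1/SvJ, and in 30 called genes none was. These 2 extremes were not counted over all genes, so no background share stands beside them. Singled out after their values were seen, the first group holds Il33, a cytokine of the interleukin 1 family, and Ndn beside Nnt, Wdfy1 and Zbed3. The second group holds Efcab2, Fam103a1, Evf1_2, Sncg, a synuclein, and Ccnd1, cyclin D1. By strain, C57L/J and C57BLKS/J, which share ancestry with C57BL/6J, were nearer to 129X1/SvJ in 22.3% and 30% of the 220 genes, and C3H/HeJ and DBA/2J in 67.3% and 65.9%.

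**Figure D5:**
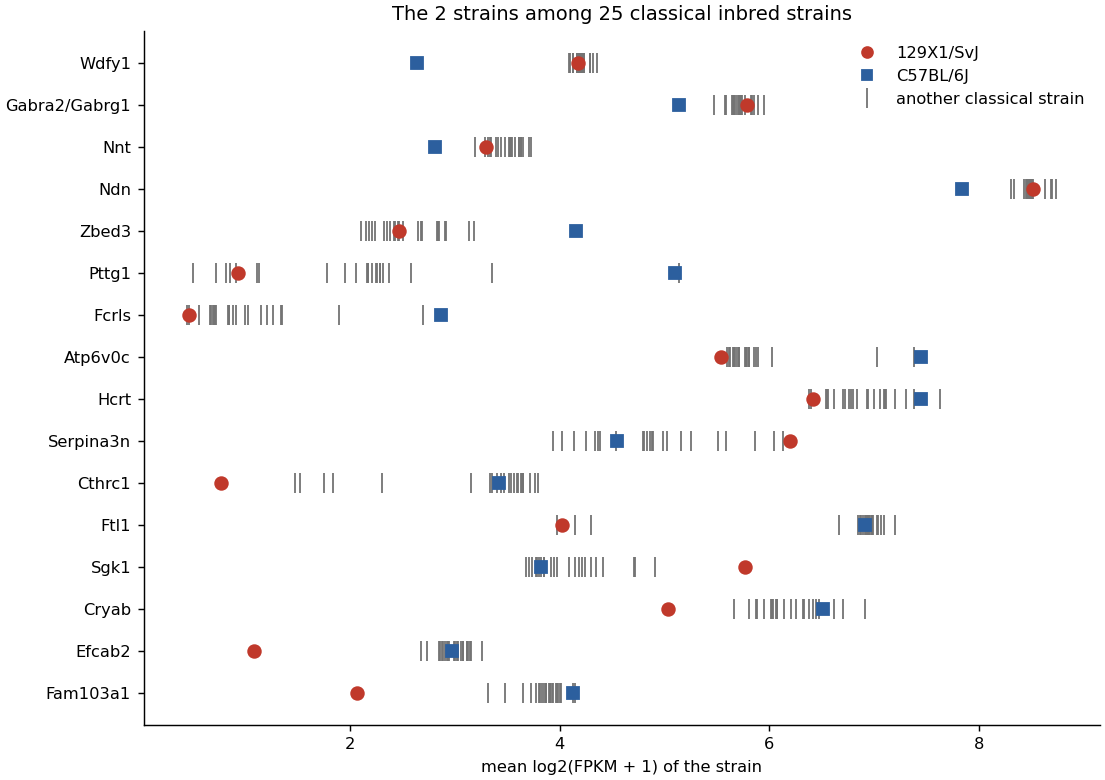
Mean log2(FPKM + 1) of the 25 classical inbred strains for 16 genes, with 129X1/SvJ as a red circle, C57BL/6J as a blue square and each other strain as a grey line. In Wdfy1, Gabra2/Gabrg1, Nnt, Ndn and Zbed3 the blue square lies apart from all the rest, and in Sgk1, Cryab, Efcab2 and Fam103a1 the red circle does.

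Called genes lay on every chromosome, with shares from 3.37% on X to 10.3% on chromosome 13 apart from Y, where 2 of 6 genes were called. Over the 419 windows of 5 Mb with at least 10 genes, the median share was 6.45%, and 33 windows had at least 20%. The highest share was 8 of 21 genes at 60 to 65 Mb of chromosome 7, a region of imprinted genes. Ndn, necdin, a maternally imprinted gene of the Prader-Willi region, had 339, 342 and 426 FPKM in 129X1/SvJ and 277.8, 218 and 197 FPKM in C57BL/6J (difference 0.68 ± 0.13), a call lost in the 6 mice alone. Beside it Klf13, a transcription factor, was higher and Mtmr10, a myotubularin-related protein, was lower, by 0.70 and -0.41, both lost without 129X1/SvJ mouse 1 or 2 or C57BL/6J mouse 2, and Mtmr10 also without C57BL/6J mouse 3. The noncoding gene A330076H08Rik had 10.4, 10.9 and 12.9 FPKM in 129X1/SvJ and 19.96, 18.9 and 16.04 FPKM in C57BL/6J (difference -0.64 ± 0.12), and 4 loci without a name were lower, of which XLOC_034057 was listed at 0 in every 129X1/SvJ mouse and at 3.15 to 3.71 FPKM in C57BL/6J. Of these unnamed loci, XLOC_031659 held only without C57BL/6J mouse 1 and XLOC_031661 only without 129X1/SvJ mouse 2, so 4 of the 8 calls were lost without 129X1/SvJ mouse 1, and likewise without C57BL/6J mouse 2.

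At 115 to 120 Mb of chromosome 13, 6 of 16 genes were called, with Nnt and XLOC_010222 higher and 4833420G17Rik, Gm21967/Gm7120, Nim1/Zfp131 and 3110070M22Rik lower. The joined locus Gm21967/Gm7120 had 1.15, 1.92 and 1.55 FPKM in 129X1/SvJ and 5.06, 9.29 and 6.93 FPKM in C57BL/6J (difference -1.65 ± 0.18). 3110070M22Rik held only without 129X1/SvJ mouse 2, and XLOC_010222 was lost without 129X1/SvJ mouse 3 or C57BL/6J mouse 2. At 5 to 10 Mb of chromosome 6, 7 of 20 were called. Pdk4, Evf1_2 and Gm9825 were higher, and Pon2, a lactonase that protects against oxidation, Ica1, a protein of secretory granules, Mios, a part of the GATOR complex of nutrient sensing, and XLOC_029898 were lower. Pon2 had 11.8, 9.56 and 7.75 FPKM in 129X1/SvJ and 14.9, 13.2 and 16.5 FPKM in C57BL/6J (difference -0.58 ± 0.11), and Ica1 had 15.5, 16.7 and 17.0 FPKM in 129X1/SvJ and 21.9, 22.7 and 23.98 FPKM in C57BL/6J (difference -0.46 ± 0.10). Mios held only without C57BL/6J mouse 3. XLOC_029898 was lost without 129X1/SvJ mouse 3 or C57BL/6J mouse 1, and Pon2 in the 6 mice alone.

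At 10 to 15 Mb of chromosome 3, 3 of 10 genes were called. Fabp5, a fatty acid binding protein of the brain, had 27.0, 24.2 and 17.9 FPKM in 129X1/SvJ and 48.1, 48.7 and 46.0 FPKM in C57BL/6J (difference -1.03 ± 0.16, adjusted p = 9.4e-08), with 2 near-identical copies elsewhere, Car2, carbonic anhydrase 2, had 69.4, 60.0 and 60.4 FPKM in 129X1/SvJ and 78.3, 84.3 and 91.5 FPKM in C57BL/6J (difference -0.42 ± 0.13), and Lrrcc1, a centrosome protein, was higher by 0.36. Car2 held only without mouse 1 of either strain, and Lrrcc1 only without C57BL/6J mouse 2. At 60 to 65 Mb of chromosome 19, Fam45a was higher by 0.36, and Cacul1 and Sfxn4 were lower, with differences of -0.31 and -0.38. Sfxn4 was lost without any 1 of the 6 mice, Cacul1 held only without 129X1/SvJ mouse 3 or C57BL/6J mouse 3, and Fam45a was lost without C57BL/6J mouse 2.

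Transcript and start site rows were tested in the same way. Of 51024 transcripts 983 were called (1.93%), 384 of them higher, and of 32537 start sites 1037 were called (3.19%), 408 of them higher. Without 129X1/SvJ mouse 3 the counts were 566 and 631. In genes with 1 name, 756 transcripts and 710 start sites were called without overlap. Of these, 416 transcripts of 375 genes and 263 start sites of 250 genes lay in genes that were not called themselves. Of all genes, 7.69% were called. Transcript FPKM are estimates that divide the reads of a gene among its transcripts, and this division is less certain than the sum.

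Hspa8, the constitutive chaperone Hsc70, was not called as a gene (difference -0.24, adjusted p = 0.36), but its transcripts split. TCONS_00349783 had 80.7, 67.6 and 74.1 FPKM in 129X1/SvJ and at most 0.000455 in C57BL/6J (difference 6.23 ± 0.44). TCONS_00349770 had 17.6, 12.9 and 16.3 FPKM in 129X1/SvJ and 106, 88.9 and 178 FPKM in C57BL/6J (difference -2.86 ± 0.32). Stmn1, a protein that destabilises microtubules, was called lower as a gene (difference -0.47, adjusted p = 0.00064), while its start sites on chromosome 4 went both ways. The site at 134468320 to 134468399 had 67.4, 77.2 and 71.3 FPKM in 129X1/SvJ and 162, 174.1 and 153 FPKM in C57BL/6J (difference -1.17 ± 0.13), and the site at 134469742 had 43.7, 50.02 and 50.7 FPKM in 129X1/SvJ and 3.01, 1.13 and 5.61 FPKM in C57BL/6J (difference 3.68 ± 0.44).

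In Anxa6, a calcium-dependent membrane binding protein, 2 transcripts of 25 exons each exchanged places. TCONS_00061136 had at most 0.250 FPKM in 129X1/SvJ and 10.8 to 14.2 in C57BL/6J, and TCONS_00061138 had 9.37 to 14.9 and at most 0.000109 FPKM. The gene did not pass (difference -0.20, adjusted p = 0.072). The 2 transcripts differ in 3 exons, whose ends lie at most 8 bases apart. In Rasgrf1, a neuronal activator of Ras, 2 transcripts of 27 exons exchanged places in the same way, with 1.93, 7.60 and 12.7 FPKM in 129X1/SvJ and 0.00526, 0.119 and 0.202 FPKM in C57BL/6J for the first and 7.98 to 11.6 FPKM in C57BL/6J against at most 0.0532 in 129X1/SvJ for the second. They differ in 19 exons by 1 base at most. In Ntrk2, the receptor of the neurotrophin BDNF, 3 of the 4 exons that differ lay within 10 bases of an exon of the other transcript, and the gene had a difference of -0.11 (adjusted p = 0.66).

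In Gap43, a growth cone protein, the start site at 42393447 of chromosome 16 had 0, 0 and 0.0105 FPKM in 129X1/SvJ and 45.7, 124 and 114 FPKM in C57BL/6J (difference -6.45 ± 1.47), where the gene was not called (-0.14, adjusted p = 0.67). Other start sites that were lower in genes that were not called belonged to Adam15, a metalloproteinase, Synj1, a synaptic phosphatase, Hspa8 and Smarca2, a chromatin remodeller, with differences of -3.20, -2.92, -2.86 and -2.64. The higher ones included those of Dynll2, Sec61g and Sorl1, with 2.84, 2.60 and 2.38. Mice of 1 strain were uneven at some sites. That of Smarca2 had 5.26, 0.00293 and 0 FPKM in 129X1/SvJ, and that of Dynll2 had 10.4, 29.4 and 0.171 FPKM in C57BL/6J. Sec61g, a subunit of the protein channel of the endoplasmic reticulum, had 5.49, 6.16 and 5.22 FPKM in 129X1/SvJ and 0.057, 0.0724 and 0.153 FPKM in C57BL/6J.

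Among whole transcripts of genes that were not called, the higher ones besides Hspa8 belonged to Atp5e, Tuba1a and Ndufa3, with differences of 6.05, 5.08 and 4.33. The lower ones belonged to Gap43, Mbp, Ssbp4, Rps13 and Uqcr10, with -6.45, -4.96, -4.56, -4.45 and -4.18. Some were uneven among the 129X1/SvJ mice, with 53.8, 0.0155 and 0 FPKM for Mbp and 11.4, 52.3 and 111 FPKM for Tuba1a. The Gap43 transcript has the same FPKM as the Gap43 start site above, so it is not a separate result. For Ssbp4, a single-stranded DNA binding protein, the transcript was listed at 0 in every 129X1/SvJ mouse and at 19.0 to 25.4 FPKM in C57BL/6J. Start sites called in both directions were also found in Hmgn2, a nucleosome binding protein, where the site at 133967909 to 133968001 of chromosome 4 had 5.31, 4.50 and 3.98 FPKM in 129X1/SvJ and 19.7, 19.6 and 19.5 FPKM in C57BL/6J, and in Snhg6, a host gene of small nucleolar RNAs, with differences of -0.91 and 1.32.

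Atp6v0c, which forms the proton-conducting ring of the vacuolar ATPase that acidifies lysosomes and synaptic vesicles, differed both as a gene and by start site. The gene had 48.3, 45.2 and 43.2 FPKM in 129X1/SvJ and 182, 170.6 and 169 FPKM in C57BL/6J, a difference of -1.91 ± 0.16 (adjusted p = 2.5e-22), and 2 near-identical pseudogenes that are not in the table. The site at 24169461 of chromosome 17, minus strand, had 30.3, 31.4 and 29.1 FPKM in 129X1/SvJ and 176.3, 168 and 164 FPKM in C57BL/6J (difference -2.44 ± 0.22). The site upstream of it, at 24169648 to 24169702, had 15.6, 10.99 and 11.7 FPKM in 129X1/SvJ and at most 2.80 in C57BL/6J (difference 2.63 ± 0.57). The RefSeq windows of the 2 starts are shown because 1 start was lower and the other higher in the same mice, and were chosen after these values were seen. The first RefSeq start lies 11 bases from the deposited site, and the second lies inside it, and the 50 transcribed bases are again in capitals.

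Atp6v0c, chr17:24169401-24169700, minus strand: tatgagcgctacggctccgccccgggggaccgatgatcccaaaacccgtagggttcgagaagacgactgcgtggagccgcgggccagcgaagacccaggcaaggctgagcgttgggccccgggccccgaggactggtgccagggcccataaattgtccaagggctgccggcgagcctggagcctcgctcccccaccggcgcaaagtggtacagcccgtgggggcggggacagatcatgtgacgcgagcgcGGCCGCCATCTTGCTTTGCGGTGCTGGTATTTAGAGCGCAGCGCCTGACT

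Atp6v0c, chr17:24169629-24169928, minus strand: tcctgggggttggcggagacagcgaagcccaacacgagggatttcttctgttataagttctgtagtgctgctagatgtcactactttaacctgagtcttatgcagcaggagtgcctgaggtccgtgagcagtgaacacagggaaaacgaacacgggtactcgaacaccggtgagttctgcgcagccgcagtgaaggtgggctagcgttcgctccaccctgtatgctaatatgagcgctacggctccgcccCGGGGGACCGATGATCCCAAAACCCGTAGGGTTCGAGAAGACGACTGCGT

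The window of the lower site holds 30 CG dinucleotides and that of the higher site 21. Cyld and Rtbdn, singled out after their values were seen because a RefSeq start coincides with a deposited one, also had sites in both directions. In Cyld, a deubiquitinase that restrains NF-kappaB, the site at 88697028 to 88697120 of chromosome 8 had 10.7, 9.85 and 8.95 FPKM in 129X1/SvJ and 19.3, 19.5 and 16.3 FPKM in C57BL/6J, and the site at 88705222 had 6.92, 7.48 and 6.84 FPKM in 129X1/SvJ and 0.311, 2.43 and 3.51 FPKM in C57BL/6J. In Rtbdn, a riboflavin binding protein known from the retina, the site at 84946991 had 2.88, 3.23 and 3.37 FPKM in 129X1/SvJ and 1.601, 0.841 and 1.85 FPKM in C57BL/6J, and the site at 84949860 was at most 0.000476 FPKM in 129X1/SvJ and 0.821 to 3.18 in C57BL/6J, while the gene was not called (0.06, adjusted p = 0.94).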

How the data were processed

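Whole hypothalamus RNA of 282 male mice was sequenced as unstranded mRNA libraries with paired 50 bp reads. According to the study's methods and the submitters' processing notes, the authors aligned reads with STAR 2.3.1 to mm10, allowing 3 mismatches and 10 mappings, built transcripts by strain in Cufflinks 2.2.0, joined these to GENCODE models and quantified all mice in Cuffnorm 2.2.1. The deposited values are FPKM of genes, transcripts and start sites, with rows kept by the authors if 100 or more mice were above 0 and 50 or more were above 1. FPKM keep no counts, so counting intervals were not computed. Read depth is from the study's library list.

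Strains were taken from the labels and genes were named through the merged assembly. Differences in log2(FPKM + 1) were tested with limma 3.58.1 in R 4.3.3 over the 281 mice with a strain label, 1 term per strain, with Benjamini-Hochberg adjusted p-values over all rows, a two-sided test and a threshold of 0.05. Errors after ± are standard errors. Named were the 15 genes with 1 name and the 5 predicted genes with the largest difference in each direction, among those called, of at least 1 log2 unit and without overlap, called and highest members of each listed group, the called genes of the 5 windows of 5 Mb with the highest share, and the 5 largest transcripts and start sites. Copies were sought with blastn 2.17.0 at 95% identity over 200 bases. Alternatives were a pseudocount of 0.1, a level filter, other scalings, mapping covariates, array weights, a trended prior, the 6 mice alone and leaving out each mouse. The members and lists were chosen with earlier results of these data known. Leaving out mice for the listed groups was added after seeing the data. On simulated data for this comparison of 14079 genes, 54% of genes changed by 0.5 log2 units and 100% of those changed by 1 were recovered. Some genes that this rule names are not reported here. No column of per-sample values was left without a sample.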

Additional observations from a re-analysis of the deposited data

How the results depend on the processing

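Of 95 called named genes, 55 were called under all 15 alternatives, 39 were lost under at least 1, 1 was called in every alternative that kept it, and 0 reversed. The level filter left 5 of the 95 untested. In the 6 mice alone 3.65% of genes, 0.398% of transcripts and 0.673% of start sites were called, against 7.69%, 1.93% and 3.19%. Array weights in these mice gave 4.74% of genes, and the mapping shares as covariates gave 12.9%, with 620 higher and 1199 lower. Leaving out 1 of the 6 mice gave 5.08% to 6.57% of genes, 1.11% to 2.12% of transcripts and 1.94% to 3.01% of start sites. Leaving out a BXD-12/TyJ mouse with an unusual FPKM sum gave 9.23% of genes. The lowest shares came without C57BL/6J mouse 2 for genes and without 129X1/SvJ mouse 3 for transcripts and start sites, and 1.23% of transcripts were called without C57BL/6J mouse 2. Genes with at least 1 log2 unit and no overlap made up 2.59% with a pseudocount of 0.1, against 1.56%, and with the covariates 110 were higher and 139 lower, against 127 and 93. List medians moved to -0.0328 for transmitter synthesis and transport, -0.0291 for astrocytes and 0.000454 for glutathione and NADPH metabolism with quantile normalization, from -0.08, -0.11 and -0.03. With median scaling they moved to -0.0163 for ependymal cells and -0.00949 for glutathione and NADPH metabolism. The causes were not tested. No paired analysis was possible because the labels give mouse numbers and no replicate numbers shared between strains. FPKM keep no counts, so the limits set by depth were not computed.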
